A study of Macaca fascicularis with 44 samples.

Results

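Immediate early genes were followed through the RNA of single cells from cultured cynomolgus monkey embryos. The genes were taken by name from a list of 10: FOS, FOSB, JUN, JUNB, EGR1, EGR4, ATF3, IER2, DUSP1 and DUSP2. Of these, 9 matched a row of the deposited table of 21834 genes. JUN matched no row by name and was not analysed here.

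Immediate early genes are transcribed within minutes of a growth factor, stress or mechanical signal, from factors already present in the cell and without new protein synthesis. Many encode transcription factors that pass the signal on: FOS, FOSB and JUNB form the dimeric factor AP-1, and EGR1 and EGR4 are zinc-finger factors downstream of MAP kinases. DUSP1 and DUSP2 encode phosphatases that switch MAP kinases off again, so the same wave carries its own brake. The same genes also rise in many tissues while cells are freed by warm enzyme, so their RNA in a dissociated cell can hold a response to the digestion.

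The embryos were wild type Macaca fascicularis, made by sperm injection and grown in vitro from the blastocyst on, with no treatment that set the groups apart. Libraries were grouped by embryonic day. E16 had 7 libraries, E18 had 5, E20 had 6, E21 had 5, E22 and E23 had 6 each, E24 had 2 and E25 had 5. E16 came from 2 embryos (E16-1 and E16-2) and every later day from 1 embryo, so after E16 day and embryo cannot be told apart, and p-values over libraries measure the spread between libraries that share embryos. Per the labels, embryos were dissected to remove extraembryonic tissue, digested with TrypLE and separated by mouth pipetting. The authors' annotation nevertheless puts most cells in extraembryonic classes, with 1185 in extraembryonic mesenchyme, 566 and 549 in 2 trophoblast classes, 474 in Extraembryonic Mesoderm and 111 in syncytiotrophoblast, and many of the results are of those classes. No undissociated sample was analysed here, so RNA present in the embryo and RNA made during digestion cannot be told apart.

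The table held 3682 cells in 44 libraries, of which 42 (3533 cells) had a day on which their labels did not conflict. Library totals ran from 4393315 to 30568931 counts over 22 to 96 cells, and the median cell had 110458 counts. Levels are CPM, the count of a gene per 1000000 counts of the cells summed. They are comparable between samples for 1 gene but not between genes, since they are not per length. The authors' 12 cell classes include extraembryonic mesenchyme (EXMC), Extraembryonic Mesoderm, cytotrophoblast (CTB), extravillous trophoblast (EVT), syncytiotrophoblast (STB), epiblast (EPI) and PS and derivative, the primitive streak class. Of 40 defining markers found, 19 had their highest level in the class they mark and 35 had 1 of their 3 highest there. None of the 4 markers each of CTB, Extraembryonic Mesoderm and Mesoderm was highest in its own class. Nor were the 2 found for Non-neural ectoderm or the 1 found for Blood cells. Of the EXMC markers, POSTN (426 CPM) and LUM (4155 CPM) were higher in Extraembryonic Mesoderm (2568 and 5725 CPM).

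In whole libraries FOS, FOSB and EGR1 were lowest at E16, and the immediate early genes went up and down from embryo to embryo thereafter. FOS stood in E16-1 at 142, 205, 216 and 283 CPM in its 4 libraries, and in E16-2 at 250, 308 and 390 CPM. At E18 the 5 libraries held 1616, 2546, 2752, 2768 and 3119 CPM of FOS. At E20 the 6 libraries ran from 3821 to 4729 CPM of FOS, with a median of 4380. No FOS value of E16 reached those of E18, and all E20 libraries lay above all E18 libraries.

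From E21 to E23 FOS was lower again. The 5 libraries of E21 held 881, 925, 997, 1225 and 1378 CPM. E22 ran from 1466 to 2231 CPM of FOS with a median of 1696, and E23 from 851 to 1800 with a median of 1258. FOS then stood at 3573 and 3743 CPM in the 2 libraries of E24 and at 2623, 2691, 2979, 3410 and 3835 CPM in the 5 of E25. The levels of E24 and E25 overlapped each other and lay above every library of E21, E22 and E23. Pooled over cells, FOS was 20.1-fold higher in the embryo of E20 than in E16-1.

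**Figure D1:**
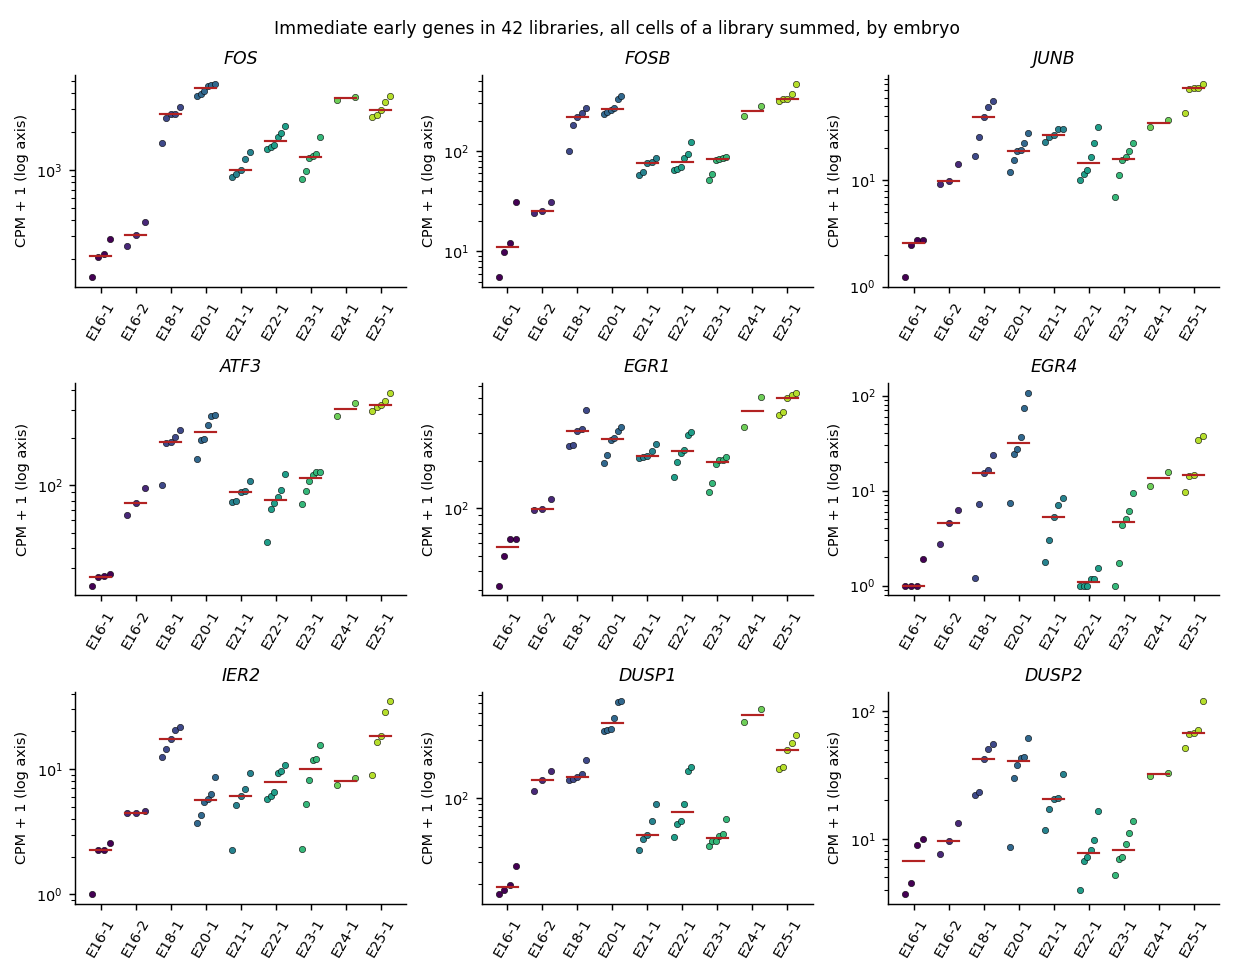
Level of each of the 9 immediate early genes (CPM + 1, log axis, 1 panel a gene) in each library, by embryo in order of day, with the median of the embryo as a red bar. The E16 libraries sit lowest for FOS, FOSB and EGR1, and the medians of E18, E20, E24 and E25 stand above those of E21 to E23 for FOS and FOSB, while the lowest E18 libraries overlap E22.

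The other AP-1 genes were low at E16 too. FOSB, a FOS relative, lay between 4.56 and 30.04 CPM in the 7 libraries of E16 and between 312 and 462 CPM in the 5 of E25. The E21, E22 and E23 libraries held 50.6 to 123 CPM of FOSB, between those groups and without overlap with either. JUNB, the partner of FOS proteins in AP-1, was at 0.228, 1.45, 1.73 and 1.75 CPM in E16-1 and at 8.14, 8.82 and 13.1 CPM in E16-2. In E25 it was at 41.97, 70.6, 72.8, 73.1 and 79.1 CPM. JUNB at E25 lay above the E16 libraries throughout, and 1 E25 library (41.97) fell below the highest E18 libraries (47.8 and 54.9). The level of JUNB in E20, 10.9 to 26.95 CPM, overlapped that of E16-2, although FOS was at its highest in E20.

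ATF3, a stress-induced transcription factor of the ATF and CREB family, lay between 22.1 and 26.5 CPM in E16-1 and between 64.0 and 95.7 CPM in E16-2. It lay between 293 and 385 CPM in E25 and at 276 and 333 CPM in E24. Unlike FOS, ATF3 overlapped E16-2 in E21, where it ran from 77.4 to 105 CPM, in E22, where it ran from 42.6 to 117 CPM, and in E23, where it ran from 75.6 to 121 CPM.

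EGR1 held 31.2, 48.5, 62.5 and 62.8 CPM in E16-1, and 97.2, 98.0 and 114 CPM in E16-2. Every later library was higher, from 126 CPM at E23 upwards. EGR1 was at 389, 409, 501, 526.3 and 543 CPM in E25 and at 328 and 507 CPM in E24. One library of E18, at 418 CPM, lay above the lower libraries of both. EGR4, a relative of EGR1, was sparse: 3 of the 4 libraries of E16-1 held no count and the fourth 0.910 CPM. Its range at E20, 6.48 to 106 CPM, held the highest library of any day, while no library of E22 passed 0.522 CPM.

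IER2, a small nuclear early response protein, ran from 0 to 3.66 CPM at E16 and from 7.99 to 33.9 CPM at E25. E25 overlapped E18 (11.4 to 20.8 CPM), E21 (up to 8.27 CPM), E22 (up to 9.79 CPM) and E23 (1.29 to 14.6 CPM), and lay above the libraries of E16, E20 and E24. The counts behind IER2 are few, and its embryos separated less than those of FOS.

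DUSP1, a nuclear phosphatase of p38, JNK and ERK kinases, differed between the 2 embryos of the same day. In E16-1 it held 15.4, 16.8, 18.7 and 27.02 CPM, and in E16-2 it held 115, 140 and 166 CPM, with no overlap. Its highest libraries were those of E20, from 353 to 624 CPM with a median of 414, and of E24, with 420 and 536 CPM. In E21 it held 37.2, 45.7, 48.8, 64.1 and 88.3 CPM, below E16-2 and above E16-1. Pooled over cells, DUSP1 was 24.6-fold higher in E20 than in E16-1. DUSP2, an inducible phosphatase of the same family, ran from 2.68 to 12.2 CPM at E16 and from 50.5 to 119 CPM at E25. At E22 and E23 DUSP2 lay between 2.98 and 15.7 CPM and overlapped E16.

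Set against the highest E16 library of the same gene, all 35 later libraries were higher for FOS, FOSB and EGR1. Of all 13174 genes tested, 0.471% separated the later libraries from E16 in this direction. For the other members, the later libraries above the highest of E16 numbered 31 for IER2, 29 for JUNB, 24 for ATF3, 23 for DUSP2, 20 for EGR4 and 15 for DUSP1. The cells also differed: PS and derivative cells, the class with the lowest FOS, made up 189 of the 208 cells of E16-1. In such sums, fewer cells with an RNA and less of it per cell cannot be told apart. What share of the difference between whole libraries comes from the mixture of classes was not tested.

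The embryo accounted for most of the spread of these genes between libraries. Between-embryo differences held 96.4% of the variance of FOS on the log2 scale, above 99.0% of 7803 genes. The shares were 93.2% for FOSB, 92.9% for ATF3, 92.4% for DUSP1, 91.2% for EGR1 and 88.3% for JUNB, and lower for DUSP2 (80.8%), EGR4 (76.3%) and IER2 (73.1%), against a median of 72.4% over all genes. Within the class EXMC the share of FOS was 94.98%, against a median of 52.4% over all genes. In CTB it was 87.6%, in EVT 88.7% and in Extraembryonic Mesoderm 86.5%. The share of every member lay above the median of all genes in EXMC, in EVT (median 38.7%) and in Extraembryonic Mesoderm (median 35.3%), although barely so for IER2 in EVT (38.8%). In CTB, 4 members lay below the median of 58.3%: JUNB (57.9%), EGR4 (34.7%), DUSP2 (29.1%) and IER2 (23.5%). Embryo, day, handling of that embryo and, mostly, the library code go together and cannot be told apart.

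Some embryos shared an 8-digit code in the library names. In 1 code the 4 libraries of E25 held 2623 to 3835 CPM of FOS and the 2 of E21 held 925 and 1225 CPM. In another code 1 library of E25 held 3410 CPM and 3 of E21 held 881 to 1378 CPM. EGR1 lay at 389 to 526.3 CPM against 213 and 257 CPM in the first code, and at 543 CPM against 209 to 229 CPM in the second. For FOS and EGR1, E25 was thus above E21 within both codes that held the pair, with 1 embryo on each side. IER2 in the second code was at 7.99 CPM in the 1 library of E25, within the 4.18 to 8.27 CPM of E21.

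Over all cells, 7 of 9 members rose with day: JUNB, FOSB, ATF3, EGR1, FOS, DUSP2 and IER2 (edgeR quasi-likelihood test on sums per library, Benjamini-Hochberg adjusted p under 0.05). Among all 13174 genes tested, 8.25% rose. The median slope of the members was 0.19 log2 per day, against 0.0032 over all genes. JUNB rose by 0.23 ± 0.06 log2 per day (SE, adjusted p = 0.00521), FOSB by 0.23 ± 0.07 (adjusted p = 0.0142) and ATF3 by 0.19 ± 0.05 (adjusted p = 0.00272). EGR1 rose by 0.19 ± 0.04 (adjusted p = 0.000289), the smallest p of the members. FOS rose by 0.19 ± 0.06 (adjusted p = 0.0335), DUSP2 by 0.19 ± 0.06 (adjusted p = 0.0355) and IER2 by 0.17 ± 0.06 (adjusted p = 0.0423). DUSP1, at 0.11 ± 0.07 (adjusted p = 0.282), and EGR4, at 0.12 ± 0.14 (adjusted p = 0.593), did not pass.

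The rise depended on E16. Without its libraries 0 members passed with edgeR, beside 468 of 13230 genes that rose and 619 that fell. At an unadjusted p under 0.05 there were 3 members, beside 3107 genes. In that fit the slope of FOS was 0.0027 log2 per day (adjusted p = 0.981), that of EGR1 0.10 (adjusted p = 0.113) and that of EGR4 −0.06. With counts summed per embryo, 0 members and 0 genes passed (2 members and 1543 of 15835 genes at an unadjusted p under 0.05). Leaving out 1 library at a time left 4 to 7 members called. FOS lost its call in 11 of 42 such fits, DUSP2 in 11 and IER2 in 12, while JUNB, FOSB, ATF3 and EGR1 kept theirs in all 42.

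**Figure D2:**
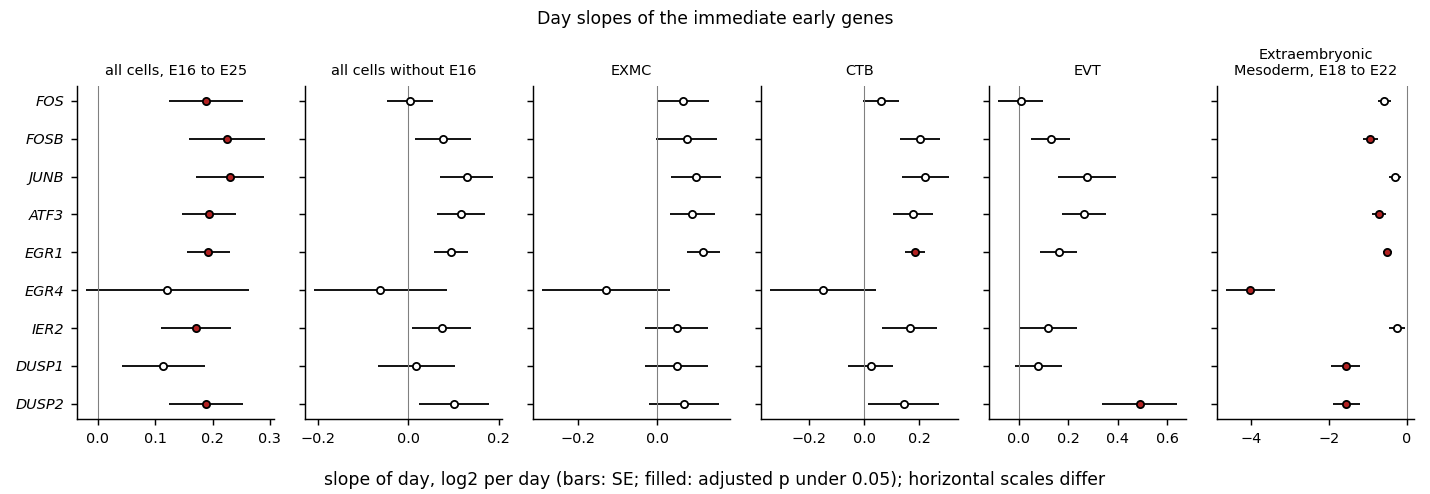
Fitted slope of each member with day (log2 per day, points, with bars of 1 SE; filled points passed at adjusted p under 0.05) in sums of all cells, all cells without E16, EXMC, CTB, EVT and Extraembryonic Mesoderm, with horizontal scales that differ between panels. The members lie to the right of 0 over all cells, near 0 without E16, and to the left of 0 in Extraembryonic Mesoderm, where 6 passed.

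Within the class EXMC, sampled in 28 libraries of 7 embryos, 0 of 9 members passed the test of a slope, against 0.82% of 10976 genes that rose and 0.911% that fell. At an unadjusted p under 0.05 the count was 1, beside 1554 of the 10976 genes: EGR1, at 0.12 log2 per day (adjusted p = 0.162). DESeq2 also called 0. Without 1 library, number 41 of E18, EGR1 passed (adjusted p = 0.0426). With the library code as a term, which leaves the slope to codes with more than 1 embryo, 5 members passed, beside 1.43% of genes that rose, among them FOS at 0.31 log2 per day (adjusted p = 1.51e-06). That fit puts E23 in 1 code with the seventh library, of E16-2, as the labels do. With the code in the cell names, which sets them apart, an alternative chosen after the data were seen, 7 members passed, beside 2.85% of genes that rose, with FOS at 0.43 (adjusted p = 8.17e-08). The absence of a slope did not mean even levels. FOS in EXMC was at 286, 353 and 531 CPM in E16-2, at 4228, 4230, 4378 and 4672 CPM in E18, and at 5025, 5144 and 6633 CPM in E20. It was lower in E21 (1109 to 1575 CPM, 5 libraries) and E23 (1026 to 2612 CPM, median 1733, 6 libraries), and higher again in E24 (3104 and 3555 CPM) and E25 (3261 to 4659 CPM). E20 was highest, as in whole libraries, and E21 and E23 lay below E18, E24 and E25. E16-2 was the lowest of the 7 embryos with EXMC sums, which do not include E16-1.

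DUSP1 in EXMC stood at 384, 1289 and 1414 CPM in E20 and at 594 and 680 CPM in E24. It stood at 59.3 to 118 CPM in E21 and at 50.5 to 150 CPM in E23. E20 and E24 did not overlap E21 or E23. JUNB in EXMC was highest in E18 (44.9 to 153 CPM) and E25 (73.2 to 122 CPM), which overlapped each other, and had its lowest median in E16-2 (9.66, 11.3 and 18.7 CPM), where it overlapped E23 (9.48 to 55.7 CPM). In E20, where DUSP1 was highest, JUNB was at 9.58, 39.9 and 53.8 CPM.

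In CTB, 1 of 9 members passed, beside 1.77% of 10794 genes that rose: EGR1, at 0.19 ± 0.04 log2 per day (adjusted p = 0.00503). EGR1 in CTB held 74.2 CPM in the 1 library of E16-2 and 42.02, 92.4 and 139 CPM in E18. It held 138 to 195 CPM in 6 libraries of E20 (median 179), 78.7, 131, 133, 155 and 167 CPM in E23 and 166 CPM in the 1 of E24. In E25 it held 204, 236, 257, 309 and 310 CPM, above every library of the earlier days. The call held in 21 of 21 fits that left out 1 library and without E16 (0.19, adjusted p = 0.00763), but sums per embryo and limma-voom with an embryo block called 0. With the library code as a term EGR1 did not pass and FOSB did. That fit leaves the slope to E24 against E25 within 1 code, with 1 library of E24. It cannot test a trend over all days. FOSB held 63.5 CPM in that E24 library and 162 to 349 CPM in the 5 libraries of E25.

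In EVT, 1 of 8 members tested passed, beside 4.27% of 9842 genes that rose: DUSP2, at 0.49 ± 0.15 log2 per day (adjusted p = 0.0495). DUSP2 in EVT was between 0 and 2.59 CPM in the 4 libraries of E18 and at 9.62, 23.1 and 65.6 CPM in E25, with 0.181 to 20.9 CPM at E20 overlapping both. The call held in 6 of 21 fits that left out 1 library. Without the cells of fine cluster 18, an alternative added after the data were seen, the slope was 0.04 (adjusted p = 0.964). FOS in EVT moved between embryos without a slope: it ran from 242 to 967 CPM in the 6 libraries of E23 and was at 4577 and 6683 CPM in the 2 of E24. E23 was also the embryo of 66.3% of the cells of cluster 7, an EVT cluster with a median of 10200 counts per cell, and the part of depth in this difference was not tested. EGR4 had too few counts in EVT to be tested.

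In Extraembryonic Mesoderm, sampled from E18 to E22 in 18 libraries, 6 of 9 members fell with day, beside 1.48% of 11685 genes that fell. DUSP1 fell by 1.56 ± 0.38 log2 per day (adjusted p = 0.0286), DUSP2 by 1.55 ± 0.35 (adjusted p = 0.0193) and FOSB by 0.93 ± 0.20 (adjusted p = 0.0163). ATF3 fell by 0.71 ± 0.18 (adjusted p = 0.0369) and EGR1 by 0.50 ± 0.12 (adjusted p = 0.0209). EGR4 also passed (adjusted p = 0.0011), but the size of its slope depends on the prior count because it was at 0 in many libraries. FOS, at −0.57 ± 0.17 (adjusted p = 0.0786), JUNB, at −0.30, and IER2, at −0.24, did not pass.

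The levels behind these slopes were higher in E20 than in E21 and E22, with the 1 library of E18 near E20 for EGR1 and FOSB and below it for DUSP1. DUSP1 in Extraembryonic Mesoderm ran from 969 to 2394 CPM in the 6 libraries of E20 (median 1682). It was at 217 CPM in E18, at 16.7, 21.04, 28.8, 42.5 and 61.5 CPM in E21, and at 62.8 to 283 CPM in E22 (median 115). E20 stood above all other libraries, and E21 below E22. EGR1 was at 616 CPM in E18 and ran from 591 to 838 CPM in E20, from 136 to 324 CPM in E21 and from 196 to 421 CPM in E22. FOSB was at 318 CPM in E18 and ran from 322 to 716 CPM in E20, from 43.3 to 64.3 CPM in E21 and from 83.7 to 167 CPM in E22. EGR4 ran from 16.3 to 232 CPM in E20, was between 0 and 5.85 CPM in E21, and was at 0 in 4 of the 6 libraries of E22. DUSP1 and FOSB were higher in E22 than in E21, with no overlap. With sums per embryo, with the embryo as a random block or with the library code as a term, 0 members passed, and leaving out 1 library left 3 to 6, with 3 without either library 28 or library 32. The E18 library, number 41, held 11 cells of this class.

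**Figure D3:**
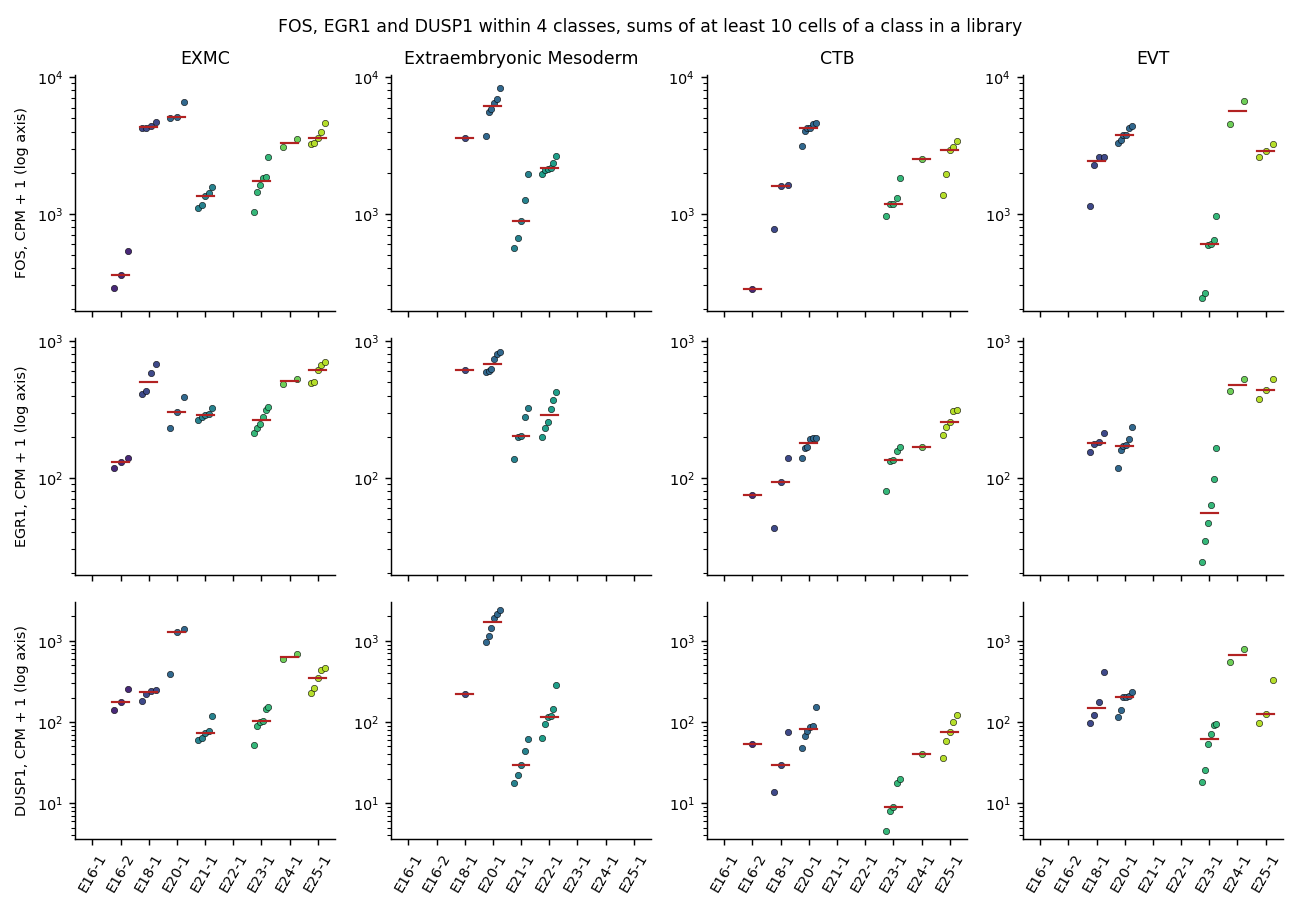
Levels of FOS, EGR1 and DUSP1 (CPM, rows) in sums of at least 10 cells per library in EXMC, Extraembryonic Mesoderm, CTB and EVT (columns), by embryo, with medians as red bars. FOS in EVT is low in E23 (242 to 967 CPM), and DUSP1 in Extraembryonic Mesoderm is high in E20 (969 to 2394 CPM) alone.

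The slopes of the 4 classes were set against each other in a joint fit. That fit had no term for library or embryo. Classes shared libraries, 18 of them for EXMC and CTB, so its p-values ignore that pairing. A class by day term passed for 6 of 9 members, beside 9.31% of 14176 genes: EGR4 (adjusted p = 5.09e-05), DUSP2 (0.00606), DUSP1 (0.0121), EGR1 (0.023), FOSB (0.0264) and ATF3 (0.0377). FOS (0.24), JUNB (0.26) and IER2 (0.62) did not pass. The classes were sampled over different days. With the embryo as a term 3 members passed, and without the embryo of E20 or without that of E22 only 1 did.

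Compared within libraries, where cells share a dissociation, the immediate early genes were highest in EXMC and Extraembryonic Mesoderm among the 8 classes fitted, which do not include STB. Each of 8 classes was set against the mean of the other 7 with the library as a block. The authors may have drawn the classes from the same values, so these p-values are descriptive. Of 72 contrasts of a member, 23 passed, beside 13.8% of those of all genes. In EXMC, 8 of 9 members were higher, beside 14.1% of 16520 genes. In Extraembryonic Mesoderm the same 8 were higher, beside 13% of genes. EGR4 did not pass in either (2.47 ± 1.59 log2, adjusted p = 0.413 in EXMC).

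JUNB had the largest difference in EXMC, 3.30 ± 0.31 log2 (SE, adjusted p = 3.52e-15). It ran from 9.48 to 153 CPM in 28 libraries of EXMC (median 44.2), from 0.700 to 30.8 CPM in 21 of CTB (median 8.16) and from 0 to 48.3 CPM in 21 of EVT (median 4.96). The ranges overlapped, and those of EXMC and CTB did so also inside E20 and inside E23. Within a library, however, JUNB was higher in EXMC than in CTB in 18 of 18 libraries that held both, and higher than in EVT in 18 of 18. ATF3 was also higher in EXMC than in CTB and than in EVT in 18 of 18 libraries each, with a difference of 1.96 ± 0.21 log2 from the mean of the others (adjusted p = 1.34e-12). DUSP2, at 2.40 ± 0.42 (adjusted p = 3.23e-06), and FOSB, at 1.92 ± 0.27 (adjusted p = 3.01e-08), followed the same direction.

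DUSP1 was higher in Extraembryonic Mesoderm by 2.43 ± 0.26 log2 (adjusted p = 1.6e-12) and in EXMC by 1.82 ± 0.25 (adjusted p = 1.48e-08). In EXMC it was above CTB in 18 of 18 libraries but above EVT in 14 of 18. DUSP1 also set the 2 trophoblast classes apart: it was higher in EVT than in CTB in 18 of 18 libraries, a pattern no other member shared, the next being IER2 with 11 of 18. Against the mean of the others DUSP1 was lower in CTB by −1.87 ± 0.30 log2 (adjusted p = 9.35e-07).

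FOS was higher in EXMC by 1.33 ± 0.15 log2 (adjusted p = 1.14e-11) and in Extraembryonic Mesoderm by 1.04 ± 0.16. Its medians over libraries were 2858 CPM in EXMC, 2617 in EVT, 2273 in Extraembryonic Mesoderm and 1969 in CTB, with ranges that overlapped. EGR1 was higher by 1.08 ± 0.16 log2 in EXMC (adjusted p = 1.31e-07) and by 1.40 ± 0.17 in Extraembryonic Mesoderm. IER2 was higher by 1.05 ± 0.30 (adjusted p = 0.00723) and 1.18 ± 0.33 (adjusted p = 0.00559), and its difference in Extraembryonic Mesoderm did not pass without the embryo of E20 (adjusted p = 0.0525) or of E22 (adjusted p = 0.0607). With at least 20 cells a sum, 5 classes remained and the mean they were set against held neither PS and derivative nor ectoderm. FOS then did not pass in EXMC (0.66, adjusted p = 0.0505) or Extraembryonic Mesoderm (0.23, adjusted p = 0.598), nor did FOSB in EXMC (0.63, adjusted p = 0.187) or Extraembryonic Mesoderm (0.66, adjusted p = 0.127), or IER2 in EXMC (0.21, adjusted p = 0.841).

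The 2 mesenchymal classes themselves were set side by side in the 9 libraries that held both, with no test of their difference. Of the 9, 5 were of E21, 3 of E20 and 1 of E18. ATF3, DUSP1, FOSB and JUNB were higher in EXMC in 7 of the 9, and EGR4 in 7 with 1 library the other way. For DUSP1 the embryos differed. Its median over all sums of E21 was 73.1 CPM in EXMC and 28.8 in Extraembryonic Mesoderm. In E20 it was 1289 and 1682 CPM. Against the mean of the other classes DUSP1 had the larger difference in Extraembryonic Mesoderm. FOS was higher in EXMC in 6, and EGR1 and DUSP2 in 5. IER2 leaned the other way, with 3 higher in EXMC and 6 in Extraembryonic Mesoderm.

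**Figure D4:**
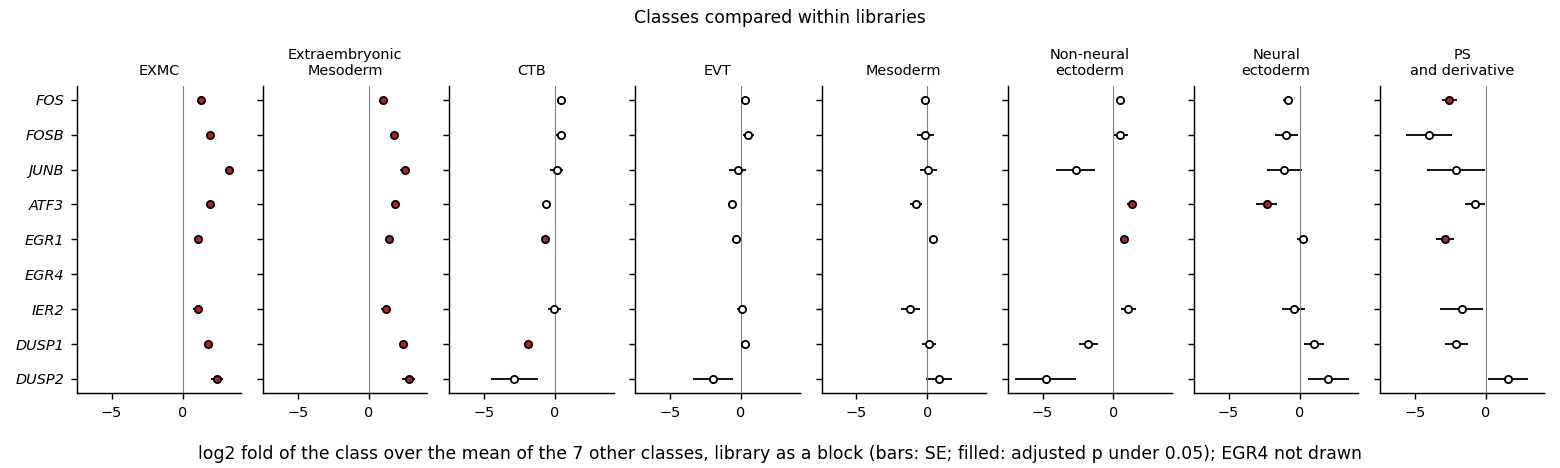
Difference of each class from the mean of the other 7 (log2 fold, points, with bars of 1 SE; filled points passed at adjusted p under 0.05) for 8 members, fitted within libraries, with EGR4 not drawn. EXMC and Extraembryonic Mesoderm lie to the right of 0 for all 8 members drawn, and JUNB in EXMC (3.30) lies farthest.

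In PS and derivative, FOS was lower by −2.56 ± 0.50 log2 (adjusted p = 5.89e-05) and EGR1 by −2.88 ± 0.61 (adjusted p = 0.00019), 2 of 9 members beside 1.57% of genes. FOS in this class held 108, 175, 198 and 279 CPM in E16-1 and 24.8, 32.1 and 82.1 CPM in E16-2. This class could be set against others only in those 3 libraries of E16-2. There, EXMC held 286, 353 and 531 CPM of FOS, above all its PS and derivative values. The gap could not be measured in E16-1, which held too few cells of other classes.

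Mesoderm had 0 of 9 members past the threshold with edgeR, beside 4.35% of genes higher and 1.66% lower. It also had 0 members at an unadjusted p under 0.05 and 0 with DESeq2. Set beside Extraembryonic Mesoderm alone, FOS, FOSB, JUNB, ATF3, EGR1, IER2, DUSP1 and DUSP2 were lower in Mesoderm in 7 of 7 libraries with both classes. Of these libraries 6 were of E22 and 1 of E21, so they stand for 2 embryos. Neural ectoderm held less FOS, JUNB, EGR1 and DUSP1 than Extraembryonic Mesoderm in 3 of 3 libraries, all of E22, and against the mean of the others 1 member, ATF3, was lower (−2.33 ± 0.74, adjusted p = 0.0215), beside 2.07% of genes.

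In Non-neural ectoderm 2 of 9 members were higher, beside 4.88% of genes, and 0 passed as lower. ATF3 was higher by 1.29 ± 0.37 log2 (adjusted p = 0.00821), with 10.2 to 246 CPM and a median of 129 over 6 libraries. EGR1 was higher by 0.76 ± 0.27 (adjusted p = 0.0492), a call lost without the filter on low counts (adjusted p = 0.0537) and without embryo E16-2, E21 or E25. It was also lost in cells of at least 10000 counts (0.67, adjusted p = 0.11). JUNB and DUSP2 were near 0 in the same libraries, with medians of 0.35 and 0 CPM. In CTB, EGR1 was lower by −0.67 ± 0.19 (adjusted p = 0.00639), and with DUSP1 this made 2 of 9 members lower, beside 12.5% of genes. The EGR1 call in CTB was lost without the embryo of E20 (−0.50, adjusted p = 0.148). EVT had 0 members past the threshold, 1 (ATF3) at an unadjusted p under 0.05 and 4 lower with DESeq2 (ATF3, EGR1, DUSP2 and EGR4), beside 13.4% of genes higher and 10.1% lower.

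Classes too small for this fit are given as pooled levels, with exact Poisson intervals of counting error only. STB, the hormone-making trophoblast, held 1547 CPM of FOS, 256 of FOSB and 287 of ATF3. Epiblast held 554 CPM of FOS and 192 of EGR1, and Endoderm held 942 and 185 CPM. Blood cells, 17 in all, held 672 CPM of FOS (648 to 696) and 193 CPM of DUSP1. ATF3 in STB was the highest pooled level of the 12 classes, just above the 276 CPM of EXMC, and STB was spread over 28 libraries with few cells in each. The 1 library with at least 10 STB cells, of E23, held 535 CPM of ATF3 and 140 of FOSB. The 6 EXMC libraries of E23 held 99.2 to 226 and 35.4 to 124 CPM. FOS, JUNB, EGR1, DUSP1 and DUSP2 in that STB library lay below those of EXMC, and IER2 and EGR4 within their range.

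The deposited annotation also splits the classes into 26 fine clusters. Cluster 22 of Extraembryonic Mesoderm held the highest levels of FOS (6912 CPM, 6875 to 6949), EGR1 (720 CPM), FOSB (605 CPM), ATF3 (621 CPM), DUSP1 (1975 CPM), DUSP2 (166 CPM) and EGR4 (123 CPM). Of its 74 cells, 71 came from E20. Cluster 4 of EXMC, with 69.3% of its cells from E25, held the highest JUNB (107 CPM), and cluster 11, with 66.9% from E25, the highest IER2 (25.2 CPM). The highest level of every member was therefore in a cluster mostly of 1 embryo.

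**Figure D5:**
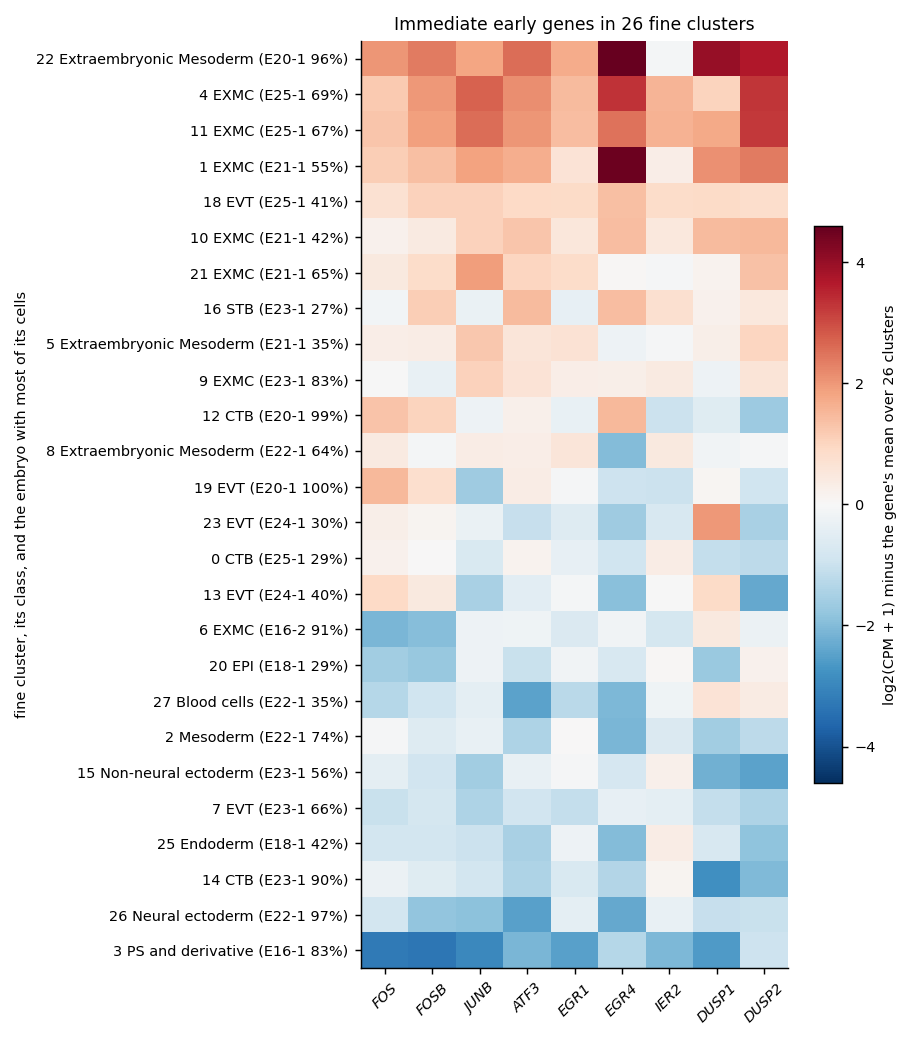
Level of each member (log2 of CPM + 1, minus the mean of the gene over the 26 fine clusters) by cluster, with rows ordered by the mean of the members and labelled with class, cluster number and the embryo that gave most cells. Clusters 22, 4, 11 and 1, all EXMC or Extraembryonic Mesoderm, are at one end, and cluster 3, PS and derivative, is at the other.

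EXMC clusters lay far apart. FOS was at 4022 CPM in cluster 11 and 3920 in cluster 4 but at 395 CPM in cluster 6, where 91.1% of the cells came from E16-2. EGR4 was high in cluster 1 of EXMC too (117 CPM), beside 0.19 CPM in Mesoderm. Few cells carried it: EGR4 was counted in 15.1% of EXMC cells, the 10% of cells with the most held 98.2% of its summed CPM, and 3744 of its 6682 counts in EXMC came from the 57 cells of E20. In trophoblast, cluster 19 of EVT (4722 CPM of FOS) and cluster 12 of CTB (4174 CPM) came from E20 for 100% and 99.3% of their cells, while cluster 14 of CTB (1398 CPM), with 89.6% from E23, and cluster 0 of CTB (1933 CPM) were lower. Cluster 18 held the highest JUNB (33.5 CPM), EGR1 (401 CPM) and DUSP2 (21.7 CPM) of the EVT clusters. Without its 87 cells JUNB over EVT was 6.28 CPM in place of 9.11.

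Clusters that several embryos shared kept the differences between embryos. In cluster 1 of EXMC, FOS was at 1695 CPM in cells of E21, 4119 in E24, 4287 in E18 and 7364 in E20. In cluster 0 of CTB it was at 213 CPM in E16-2, 975 in E21, 1438 in E18, 2515 in E24 and 2665 in E25. In cluster 2, Mesoderm, it was at 315 CPM in E21, 1311 in E22 and 3790 in E18. E21 was below the other later embryos named in each of these 3 clusters, and in cluster 8 of Extraembryonic Mesoderm it stood at 776 CPM against 2109 in E22. These are sums of cells pooled within an embryo, with no replicate.

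Single cells were compared at equal depth. In cells thinned to 10000 counts, leaving out 200 shallower cells, FOS was detected in 95.2% of CTB cells (exact 95% interval 93.0 to 96.8), 94.2% of EVT, 93.4% of EXMC and 95.9% of Extraembryonic Mesoderm. It was detected in 41.6% of PS and derivative cells (34.9 to 48.5), and in 84.6% of them before thinning. These intervals treat cells as independent, although cells share embryos and libraries, so they do not measure the spread between embryos. Of the PS and derivative cells, 82.9% came from E16-1, so class and embryo cannot be told apart in this comparison. By embryo the thinned share of FOS was 45.1% in E16-1, 67.0% in E16-2, 89.1% in E21 and 99.3% in E25. Cells with at least 5 of the 9 members were 45.03% in EXMC, 32.1% in Extraembryonic Mesoderm and 59.0% in E25. Among 214 thinned PS and derivative cells there were 0, and 32.7% of them held none of the 9.

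The members varied together across libraries, less so once embryo means were removed. Over 42 libraries the 36 pairs had a median correlation of 0.72 in log2 levels, from 0.34 for EGR4 with IER2 to 0.95 for FOS with FOSB. With the mean of each embryo removed the median was 0.25, from −0.16 for IER2 with DUSP1 to 0.65 for FOS with FOSB. Over the 26 fine clusters it was 0.70. Points share embryos and library preparation, and these correlations are descriptions. FOS and FOSB were the closest pair with and without the embryo means.

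The genes most like the mean of the members included others of the early response list. Over 111 class-by-library sums with class means removed, among 7772 genes, the closest were NR4A1 (0.78), an orphan nuclear receptor, CCNL1 (0.78), a cyclin tied to splicing, and ZFP36 (0.77), which destabilises inflammatory mRNA. VMP1 (0.77), NFKBIZ (0.74), CCN1 (0.73), WSB1 (0.72), TMEM45A (0.71), PPP1R15A (0.69) and GAPDH (0.69) followed. Among the ranked genes of the early response list the likeness ran from −0.19 to 0.78, so not all of that list was close. Over the 26 fine clusters the closest were DNAJB1 (0.93), an inducible cochaperone, NR4A1 (0.92), ZFP36 (0.91), CCNL1 (0.89) and VMP1 (0.89). With embryo means removed as well, 2 of the first 10 stayed among the closest 10, ZFP36 (0.42) and CCNL1 (0.41).

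Genes of stress and of related pathways are set beside these results because digestion is known to raise several of them. Of 33 other early response genes tested over all cells, 8 rose with day and 1 fell (all genes 8.25% and 10.2%), among them KLF4 (0.36 log2 per day), EGR2 (0.28), EGR3 (0.24) and CCN1 (0.24). Their summed level was 972 CPM in E16-1, 2468 in E16-2, 4852 in E20, 1979 in E21, 5298 in E24 and 4638 in E25. Of 13 heat shock genes tested, 2 rose (DNAJB1 by 0.15 and DNAJB4 by 0.13 log2 per day) and 6 fell, with HSPH1 at −0.14 and HSP90AA1 at −0.12. Summed, the heat shock genes were at 11079 CPM in E16-1, 10502 in E20 and 6666 in E25, which was not the order of FOS. The largest parts of that sum in E16-1 were HSP90AB1 (3906 CPM), HSP90AA1 (3232 CPM) and HSPA8 (1688 CPM), so it says little of the less abundant genes. DNAJB1 went from 37.8 CPM in E16-1 to 259 CPM in E25, while HSPA1A was between 0.112 and 4.23 CPM in every embryo.

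Of 10 MAP kinase feedback genes tested over all cells, 1 rose and 4 fell, namely ETV4 and DUSP5 (both −0.22), ETV5 (−0.19) and DUSP6 (−0.15). Of 8 NF-kB response genes 0 rose and 2 fell, CXCL8 at −0.41 and RELB at −0.20. In the EXMC contrast, 23 of 34 other early response genes were higher and 0 lower, with a median of 1.33 log2 against 1.92 for the members and 0.11 over all genes. In the same contrast 5 of 13 heat shock genes were higher and 3 lower, beside 14.1% of all genes higher and 7.66% lower. In Extraembryonic Mesoderm 13 of 34 other early response genes were higher and 1 lower, beside 13% and 5.92% of all genes. What part the digestion had in the levels of FOS, EGR1 and the other members, by class or by embryo, was not tested.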

How the data were processed

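The deposited table holds raw counts per gene and cell, with no normalization, as its values show; its column sums equal the totals the authors give in the annotation in 3682 of 3682 cells. Per the submitters' processing notes, cutadapt 1.15, STAR 2.6.0a and HTSeq 0.10.0 were used. Which genome build was used, how doublets were treated, and if counts are reads or molecules is not given in the sources used here. No doublet caller was run, and reads of related genes may be shared. Classes, fine clusters and embryos are those of the deposited annotation.

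Cells of a library, or of 1 class in a library (at least 10 cells), were summed. Slopes with day, class contrasts (library as a block, adjusted over all genes and 8 contrasts) and class by day terms were tested with edgeR 4.0.16 (filterByExpr, TMM, quasi-likelihood F test) in R 4.3.3, with Benjamini-Hochberg adjusted p under 0.05. A contrast was taken only where classes share libraries. DESeq2 1.42.0, limma-voom 3.58.1, other filters, scalings, batch terms and left-out samples were alternatives. CPM are counts over the total of the summed cells, without TMM. Likeness is the Pearson correlation of log2(CPM + 1) with the mean of the members. On simulated counts the day test recovered 35.0%, 98.5% and 100% of genes changed by 0.1, 0.2 and 0.4 log2 per day, in a run on 3000 genes. The simulated libraries were independent, without embryo effects. The real ones share embryos (embryo correlation 0.53 over all cells), so these rates do not give the power or the false calls here. The members and gene lists were chosen with earlier results of these data known; members, the 10 genes most alike over class sums and the 5 over clusters, and up to 4 genes a list by size of slope were named. Libraries 26 and 27, whose labels give 2 days, entered no group; pooled levels by class, cluster or embryo include them. In 6 libraries (8 to 13) the code in the labels differs from that in the cell names, and the code of the labels was used, with that of the cell names as an added alternative. A planned motif search in promoters was not run because no sequences were used here.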

Additional observations from a re-analysis of the deposited data

Results flagged for a closer look

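In 3 of 63 groups of libraries, formed by gene and day over 7 days, 1 library stood far from the rest of its day by Dixon's test, close to the 1 in 20 that chance gives. DUSP1 in library 40 of E18 was at 204 CPM, above the other 4. EGR4 in library 29 of E22 was at 0.522 CPM, where the other 5 held almost none. JUNB in library 17 of E25 was at 41.97 CPM, below the other 4.

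The day slopes of EXMC, CTB, EVT and Extraembryonic Mesoderm differed by the class by day test for EGR4 (adjusted p = 5.09e-05), DUSP2 (adjusted p = 0.00606), DUSP1 (adjusted p = 0.0121), EGR1 (adjusted p = 0.023), FOSB (adjusted p = 0.0264) and ATF3 (adjusted p = 0.0377). For each of the 6, the slope was negative in Extraembryonic Mesoderm, which was sampled from E18 to E22 only, where E20 held the highest levels. The test ignored that classes share libraries.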

How the results depend on the processing

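The calls over all cells, 7 of 9 members, held with other size factors, without the filter on low counts, with DESeq2 and in cells of at least 10000 counts. They numbered 4 with the library code as a term (8 with the code of the cell names), 4 with limma-voom and the embryo as a block, 0 with sums per embryo and 0 without E16, and 4 to 7 with 1 library left out. In EXMC, 0 calls became 5 with the code, 7 with that of the cell names, 1 with limma-voom and 0 to 1 with 1 library left out. In CTB, 1 became 2 with DESeq2, 0 with limma-voom and 0 with sums per embryo. In EVT, 1 became 2 without the filter, 2 with DESeq2, 0 with the code, limma-voom, sums per embryo or without fine cluster 18, and 0 to 2 with 1 library left out. In Extraembryonic Mesoderm, 6 became 0 with the code, limma-voom or sums per embryo and 3 to 6 with 1 library left out. There, EGR4 could not be fitted without library 41, and a fit without E16 does not apply to EVT or Extraembryonic Mesoderm. Of 72 member contrasts, 23 calls became 36 with DESeq2 and 22 to 27 with 1 embryo left out. The class by day calls, 6, became 3 with the embryo as a term and 1 to 8 with 1 embryo left out. Genes called ranged from 0 to 3294 over all cells (2435 in the fit reported), 0 to 1008 in EXMC (190), 0 to 1200 in CTB (363), 10 to 2047 in EVT (677), 0 to 707 in Extraembryonic Mesoderm (248; 1393 without library 41) and 12605 to 21123 in the contrasts (18282). Slopes that changed sign, in log2 per day, passed in no case; the cause was not tested. Without E16, EGR4 was at −0.062 over all cells, and in EXMC DUSP2 at −0.0188, FOS at −0.0388, FOSB at −0.0183 and IER2 at −0.0223. EGR4 in EXMC was at 0.30 with the code, 0.68 with that of the cell names and 0.29 with limma-voom. In CTB, EVT and Extraembryonic Mesoderm both codes gave the same values. In CTB and EVT the code leaves the slope to E24 against E25, so it does not measure a trend over all days. In CTB, DUSP1 was at −0.071 with limma-voom, EGR4 at 2.09 with the code and 0.0874 with sums per embryo, and FOS at −0.18 with the code. In EVT with the code, ATF3 was at −0.38, DUSP1 at −1.74, EGR1 at −0.15, FOS at −1.13 and FOSB at −0.35. FOS in EVT was at −0.0108 without the filter, −0.0165 with limma-voom and −0.0222 without cluster 18, where IER2 was at −0.0472. In Extraembryonic Mesoderm with the code, which leaves E21 against E22, ATF3 was at 0.26, DUSP1 at 1.59, EGR1 at 0.25, FOS at 0.89, FOSB at 1.00, IER2 at 1.22 and JUNB at 0.34. With 1 library left out, slopes ran from −0.018 to 0.0461 for DUSP1 (−0.00781 and −0.000331 without libraries 22 and 41) and from −0.228 to 0.0842 for EGR4 in CTB, from −0.0106 to 0.158 for DUSP1 and from −0.0511 to 0.0224 for FOS in EVT (−0.00397, −0.018, −0.00725 and −0.0167 without libraries 17, 21, 22 and 41), and from −0.363 to 0.499 for IER2 in Extraembryonic Mesoderm. EGR4, IER2 and JUNB have few counts per library, which limits their precision. Of the 10 genes most alike, 9 were shared with Spearman's correlation. Fits restricted to deeper cells, without cluster 18 or with the code of the cell names were chosen after seeing the data. No paired analysis of the day slopes was possible because replicate numbers are not shared between days. The class contrasts have the library as a block. The class by day fit had no library term, although its classes shared libraries.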

Other observations

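Library 26 (55 cells) and library 27 (94 cells) carry a title and a time label that name different days and entered no group. By the annotation the first belongs to the embryo of E21 and the second to that of E24. Library 26 held 963 CPM of FOS, 56.3 of FOSB, 15.4 of JUNB, 159 of EGR1 and 80.5 of DUSP1. Library 27 held 3014 CPM of FOS, 231 of FOSB, 28.8 of JUNB, 248 of EGR1 and 362 of DUSP1.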
